A study of Mus musculus with 12 samples.

Results

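Trimethylation of histone H3 at lysine 4 (H3K4me3) was mapped by CUT&Tag in wild-type C57BL/6J mouse embryos, in the medial (MGE), lateral (LGE) and caudal (CGE) ganglionic eminences and in the cortex (CTX). The genes compared here were chosen from promoter intervals: the eminence group comprised protein-coding genes with an interval in the MGE, LGE and CGE lists and none in the CTX list, and the cortex group those with an interval in the CTX list and in none of the other 3. A promoter was the 2 kb upstream of any annotated transcription start site (TSS) of the gene in GRCm38, and 1 shared base was enough. Of 21951 protein-coding genes, 254 were in the eminence group (1.16% of all; Wilson 95% interval 1.02 to 1.31, counting error only) and 100 in the cortex group (0.456%; 0.375 to 0.554). Of the 13810 genes with a promoter interval in at least 1 list, these were 1.84% and 0.724%.

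Each region had 2 biological replicates, each from tissue of several embryos of both sexes, but reads of the replicates were merged before peaks were called, so that each region is 1 list of intervals. The number of labelled libraries differed between regions, with the most for CGE and the fewest for LGE. The study describes these data as E12.5, while its methods and the labels' protocol name E12.5 and E14.5 embryos without an age for each library. The same protocol names somatosensory cortex as the cortical tissue, and speaks of pooling nuclei of the regions although each library is labelled with 1 region. The study states read numbers for the replicates, which differ between regions and were lower for MGE and for LGE than for CGE. The number printed for CTX replicate 1 has misplaced commas, so CTX as a whole was not compared. CTX replicate 2 had more reads than each MGE and each LGE replicate. The lists carry no depth. No difference between regions could be tested, and a promoter without an interval is a promoter where no peak was called, which does not show that the mark was absent.

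H3K4me3 is deposited at the start sites of genes that are transcribed or ready to be transcribed, and CpG-rich promoters carry it in most cell types. The ganglionic eminences are the ventral swellings of the embryonic forebrain that produce GABAergic neurons, including cortical interneurons and striatal projection neurons. The embryonic cortex produces glutamatergic neurons, and the cortical hem, at its medial edge and away from somatosensory cortex, secretes Wnt and BMP ligands.

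The eminence group was the most common pattern among genes marked in some but not all lists. An interval was missing from the MGE list alone for 177 genes, from the LGE list alone for 59 and from the CGE list alone for 40, against the 254 missing from the CTX list alone. Among genes with an interval in a single list, 140 were in the MGE list, 132 in the CGE list, 100 in the CTX list and 56 in the LGE list. The cortex group was therefore smaller than the set found in the MGE or the CGE list alone. The rule depended on the MGE list: with only LGE and CGE required or barred, the groups held 479 and 171 genes. With intervals of at least 500 bp only, they held 419 and 34. Another 225 genes were in the LGE and CGE lists only, 12440 (56.7%) were in all 4 and 8141 (37.1%) in none.

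**Figure D1:**
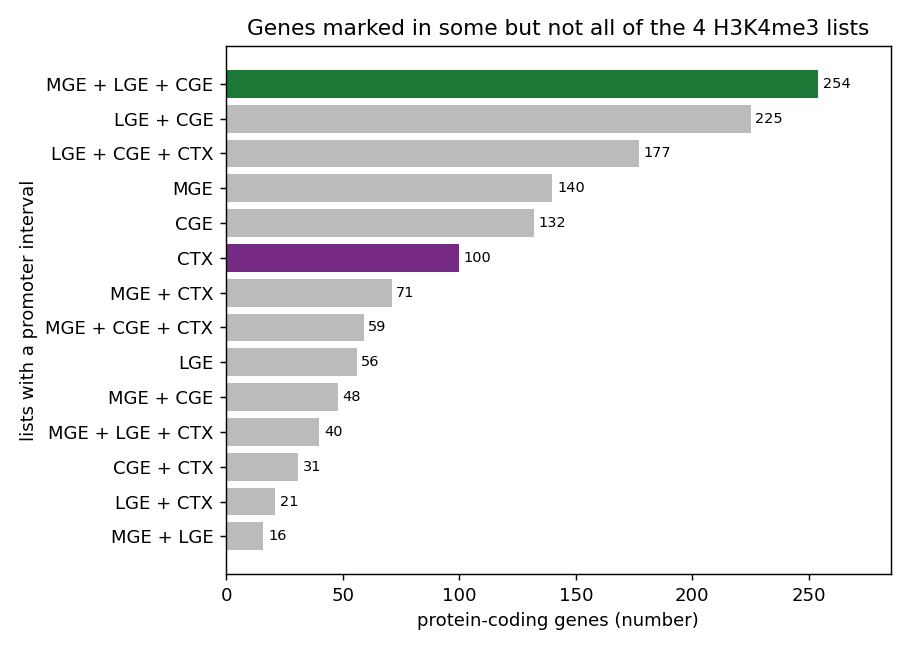
Number of protein-coding genes (horizontal axis) for each combination of lists with a promoter interval (vertical axis), without the genes in all 4 lists or in none. The eminence group (green, 254 genes) is the longest bar, and the cortex group (purple, 100 genes) is shorter than the bars of the MGE list alone (140) and the CGE list alone (132).

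The lists differed in ways that bear on these counts. The MGE list held 25339 intervals with a median width of 563 bp, the CTX list 21442 with 701 bp, the LGE list 17284 with 1168 bp and the CGE list 17752 with 1240 bp. The median −log10 q, the strength given by the peak caller, was 5.19, 8.57, 40.0 and 79.3 in the same order. Widths and strengths therefore ran lower in the MGE and CTX lists than in the LGE and CGE lists, and strength is given below as a percentile within its own list.

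Markers of the regions went with the labels in part. Nkx2-1, Lhx6 and Lhx8, the MGE markers, were in all 3 eminence lists and not in the CTX list. Presence alone therefore did not set the MGE apart from the LGE and CGE. Their −log10 q lay above the list median in MGE (16.0, 12.4 and 5.44, against 5.19). It lay below the median in LGE (3.52, 3.02 and 4.72, against 40.0) and in CGE (30.9, 17.0 and 12.7, against 79.3). This difference was not tested. For genes in all 4 lists the median was 20.9 in MGE, 70.9 in LGE and 152 in CGE, above each of these markers in every list. The whole eminence group also had a higher median percentile in MGE (35.0) than in LGE (23.4) and CGE (28.2). A higher rank in MGE was thus not particular to the MGE markers. Gad1 and Slc32a1, markers of all eminences, were in the eminence group, whereas Gad2, Dlx1, Dlx2, Dlx5 and Dlx6 had a promoter interval in all 4 lists. The LGE markers Gsx2, Isl1, Ebf1 and Meis2 and the CGE markers Nr2f1, Nr2f2 and Prox1 were in all 4 lists, and Htr3a, a marker of CGE interneurons, in the MGE and CTX lists. None of the 8 cortical markers was in the cortex group. Emx2, Eomes, Tbr1 and Slc17a7 were in all 4 lists, Emx1 in the LGE and CTX lists, and Neurog2 in all but the MGE list. Neurod2 and Neurod6 had no interval in the 2 kb upstream of a TSS in any list, CTX included. Intervals that lay only downstream were not counted.

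Promoters of a few named members serve as examples and do not stand for their groups. The 250 bases upstream of the annotated 5′ end of the gene are printed in the direction of transcription, in GRCm38, with every CpG in capitals. The 4 eminence-group promoters were overlapped in this stretch by an interval of MGE, LGE and CGE, and the cortex-group promoter, of Wnt8b, by an interval of CTX. Npy encodes a neuropeptide of interneurons, Slc32a1 the vesicular GABA transporter, and Sp9 and Lhx6 transcription factors of ventral forebrain neurons. Wnt8b is a Wnt ligand of the cortical hem.
Npy, chr6:49822460-49822709, plus strand: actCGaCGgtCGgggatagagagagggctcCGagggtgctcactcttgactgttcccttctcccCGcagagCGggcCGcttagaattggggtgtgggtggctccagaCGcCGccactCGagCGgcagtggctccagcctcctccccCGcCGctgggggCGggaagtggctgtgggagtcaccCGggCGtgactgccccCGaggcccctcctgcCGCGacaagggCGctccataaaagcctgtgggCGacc
Slc32a1, chr2:158610517-158610766, plus strand: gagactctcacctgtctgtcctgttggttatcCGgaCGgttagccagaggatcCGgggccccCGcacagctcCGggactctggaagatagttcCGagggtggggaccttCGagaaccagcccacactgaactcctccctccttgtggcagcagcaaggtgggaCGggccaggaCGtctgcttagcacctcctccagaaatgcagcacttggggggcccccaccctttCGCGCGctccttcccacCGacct
Sp9, chr2:73271675-73271924, plus strand: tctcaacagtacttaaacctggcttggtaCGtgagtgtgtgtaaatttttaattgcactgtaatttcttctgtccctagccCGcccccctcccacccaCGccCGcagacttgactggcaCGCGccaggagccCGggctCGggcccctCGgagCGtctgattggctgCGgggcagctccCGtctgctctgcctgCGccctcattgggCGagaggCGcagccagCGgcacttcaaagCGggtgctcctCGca
Lhx6, chr2:36105409-36105658, minus strand: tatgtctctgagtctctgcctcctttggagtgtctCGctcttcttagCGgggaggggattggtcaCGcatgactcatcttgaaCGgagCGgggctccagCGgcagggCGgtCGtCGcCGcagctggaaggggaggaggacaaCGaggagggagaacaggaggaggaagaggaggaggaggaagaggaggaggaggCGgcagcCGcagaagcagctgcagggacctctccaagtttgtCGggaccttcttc
Wnt8b, chr19:44493222-44493471, plus strand: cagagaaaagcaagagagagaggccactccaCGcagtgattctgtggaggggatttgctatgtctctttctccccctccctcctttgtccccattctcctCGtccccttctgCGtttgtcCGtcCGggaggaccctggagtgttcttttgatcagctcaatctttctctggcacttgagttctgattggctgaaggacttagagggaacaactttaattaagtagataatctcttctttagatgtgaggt
These stretches held 21 CpGs for Npy, 18 for Sp9, 14 for Lhx6 and 13 for Slc32a1. The Wnt8b stretch held 5, fewer than each of these 4. Wnt8b is 1 gene, and its interval of 840 bp was wider than the cortex-group median of 201 bp.

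Over whole groups, CpG content was higher in the eminence group than in the cortex group. In the 1000 bases around the 5′ end, the median ratio of observed to expected CpGs was 0.531 in the eminence group (quartiles 0.365 and 0.697) and 0.297 in the cortex group (0.200 and 0.429). The medians were 0.730 for genes in all 4 lists, 0.183 for genes in no list and 0.553 for all protein-coding genes. Promoters with a ratio of at least 0.6 and a GC content of at least 50% made up 40.2% of the eminence group (102 genes; 34.3 to 46.3), 12% of the cortex group (12 genes; 7.00 to 19.8) and 71.3% of genes in all 4 lists. Both groups sat close to the matching sets for the MGE list, the list with the most intervals: the median was 0.534 for genes missing from the MGE list alone and 0.281 for genes in the MGE list alone. These differences were not tested.

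**Figure D2:**
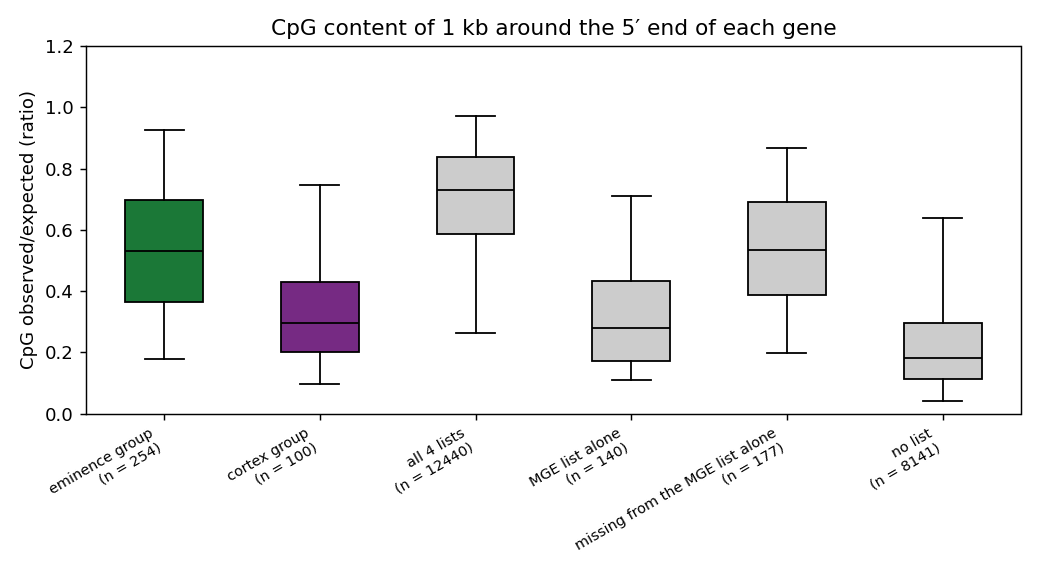
Observed over expected CpG ratio in the 1000 bases around each gene's 5′ end (vertical axis) by set of genes. Boxes show quartiles and median and whiskers the 5th and 95th percentiles; the eminence group (green, median 0.531) lies between genes in all 4 lists (0.730) and genes in no list (0.183), and the cortex group (purple, 0.297) lies lower.

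Short motifs were counted in the window from 250 bases upstream to 50 bases downstream of the 5′ end, on both strands. GGGCGG, the GC box, was present in 48.4% of eminence-group and 27% of cortex-group promoters, against 62.3% in all 4 lists, 13.0% in no list and 43.0% of all protein-coding genes. This motif itself holds a CpG. TAATTA, a core that homeodomain proteins bind, was present in 3.54% of the eminence group and 4% of the cortex group, against 5.33% of all genes. TATAAA was present in 12.2% and 8%, against 12.6% of all. The shares for CAGCTG were 16.5% and 18% (15.6% of all), for CAGATG 13.4% and 19% (15.2%), for CCAAT 34.6% and 30% (39.0%), and for CTTTGA 12.6% and 20% (15.8%). For all 7 motifs the share over all genes lay within the Wilson interval of the eminence group, and in the cortex group it lay outside for GGGCGG (19.3 to 36.4). A match is a run of letters and not a binding site.

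The gene lists were drawn up with earlier results of these data known. Shares of listed genes, here and below, are therefore a description and no evidence of enrichment. Transcription factors of the eminences contributed 6 of 37 listed genes to the eminence group, against 1.16% of all protein-coding genes: Nkx2-1, Lhx6, Lhx8, Gsx1, Six3 and Sp9. With every list limited to the length of the shortest by highest fold, none of these 6 remained in the group and 4 other listed factors entered it (Gsx2, Meis2, Ebf1 and Olig1). Across all 18 alternatives the list contributed 3 to 10 genes. In the lists as deposited, another 27 had a promoter interval in all 4, among them Dlx1, Dlx2, Dlx5 and Dlx6, homeobox genes that mark all eminences. The 36 listed cortical transcription factors contributed none to either group, and 27 of them were in all 4 lists.

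Nkx2-1, the homeodomain factor that specifies the MGE, had intervals that summed to 1839 bp (MGE list), 2934 bp (LGE list) and 3804 bp (CGE list), and the nearest CTX interval lay 144200 bp upstream of a TSS. The gene lies at chr12:56531958-56536908, and its strongest intervals had a −log10 q of 16.0, 3.52 and 30.9. The medians of the MGE, LGE and CGE lists were 5.19, 40.0 and 79.3. Lhx6, which acts downstream of Nkx2-1 in migrating interneurons, had 1184, 1943 and 5069 bp, and the nearest CTX interval began 2646 bp downstream of a TSS. Lhx8, its relative in cholinergic neurons, had 2066, 1208 and 1869 bp, with the nearest CTX interval 220307 bp upstream. The nearest CTX interval of Nkx2-1 and of Lhx8 was far from the promoter, whereas that of Lhx6 was a short way downstream of a start site.

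Gsx1, an early progenitor factor, had 1801, 1176 and 2087 bp. Six3, a factor of the anterior forebrain and of striatal neurons, had 3307, 3092 and 5597 bp, with a CTX interval 2645 bp downstream. Sp9, needed for striatal and interneuron development, had 729, 3033 and 3110 bp, with the nearest CTX interval 40038 bp away. Among the 6 factors, CGE coverage was widest for Six3, Lhx6 and Nkx2-1, and MGE coverage exceeded LGE coverage in Lhx8, Gsx1 and Six3. Lhx5, which marks Cajal-Retzius cells and the hypothalamus, was also in the eminence group, at 654, 1832 and 2994 bp, with a CTX interval 611 bp downstream.

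Transcription factors outside these lists were found in the eminence group by family name. Pou4f2, known from retinal ganglion cells, had 966, 2091 and 2269 bp in MGE, LGE and CGE, with the nearest CTX interval 71601 bp upstream. Nkx2-3, known from gut and spleen, had 1241, 4407 and 4509 bp, and a CTX interval began 2649 bp downstream. Six2, known from kidney progenitors, had 302, 1752 and 1631 bp, with the nearest CTX interval 42236 bp away. These genes are known mainly outside the eminences, as are Barx2 and Foxn4.

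Others rested on weak intervals in at least 1 list or had a CTX interval close by. Foxn4, of spinal and retinal progenitors, had a −log10 q of 1.30 in MGE, 3.52 in LGE and 1.61 in CGE. Barx2 had 1.61, 7.78 and 23.4, with a CTX interval 213 bp downstream of a TSS. Stat5a, a signal transducer of cytokine receptors, had widths of 188, 710 and 711 bp and a CTX interval 6 bp downstream.

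Genes of GABA synthesis and transport contributed 2 of 5, against 1.16% of all protein-coding genes. Gad1 (chr2:70553072-70602014), the GABA-synthesising enzyme glutamate decarboxylase, had coverage of 1663, 2883 and 4418 bp from MGE to CGE, and a CTX interval began 775 bp downstream of a TSS. Slc32a1 had 3022, 3805 and 4014 bp at percentiles of −log10 q of 62.6, 39.9 and 54.5, and its nearest CTX interval lay 13986 bp downstream. Gad2 and Abat (GABA transaminase) had a promoter interval in all 4 lists, and in both the CTX coverage was the narrowest: Gad2 covered 2303, 2469 and 2810 bp in the eminence lists and 710 bp in CTX. None of 6 genes of glutamate transport and synthesis was in either group.

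**Figure D3:**
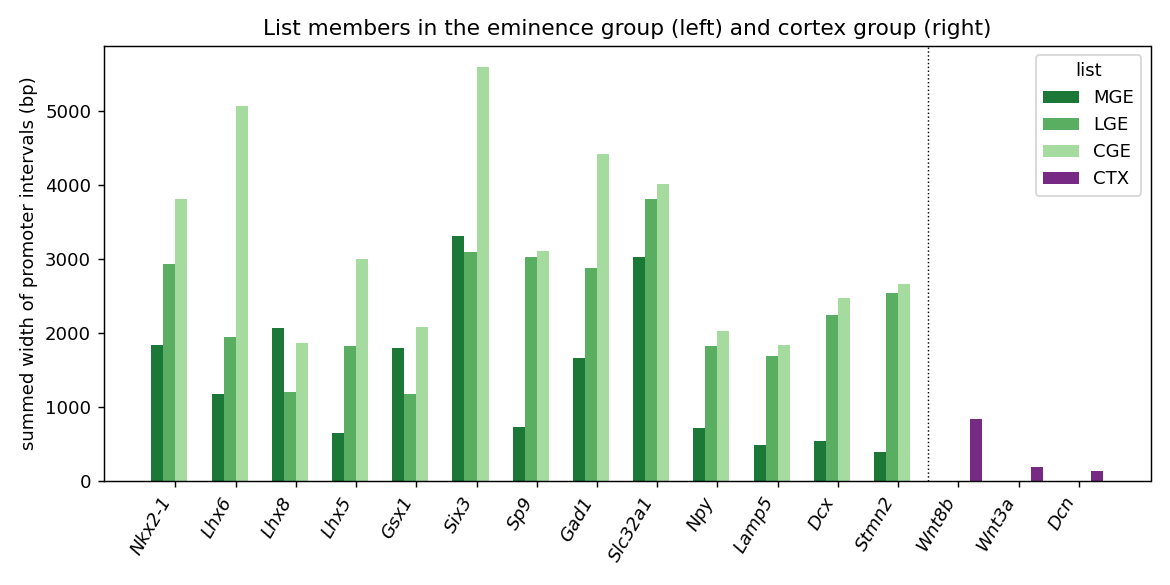
Summed width in bp of the promoter intervals of each gene (vertical axis) in the MGE, LGE, CGE (green shades) and CTX (purple) lists, for the members from the gene lists. The 13 eminence-group genes left of the dotted line have no purple bar and the 3 cortex-group genes right of it no green bar, which the choice of members fixes; Six3 has the widest coverage (5597 bp in CGE), and Dcn the narrowest (138 bp in CTX).

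Presence alone left out a difference in width among the eminence factors marked in all 4 lists. In 23 of these 27 genes (85.2%) the summed width of promoter intervals was smaller in CTX than in each of MGE, LGE and CGE, against 38.7% of the 12440 genes marked in all 4 lists. Their medians were 1967 bp for MGE and 1411 bp for CTX, where the 12440 genes had 1032 and 1075 bp. Dlx5, a homeobox factor of GABAergic neurons, covered 1787, 3808 and 4076 bp in the MGE, LGE and CGE lists, and 857 bp in the CTX list. Gsx2, the LGE progenitor factor, covered 1910, 2189, 2209 and 356 bp. Foxp1 was the 1 member wider in CTX than in all 3 eminences, at 4202, 4483, 4572 and 4986 bp.

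The cortical factors went the other way against MGE, the list most like CTX in interval width. Of the 27 in all 4 lists, 21 (77.8%) were wider in CTX than in MGE, against 59.6% of all genes in all 4 lists, with medians of 2335 bp in CTX and 1504 bp in MGE. Pax6, the dorsal progenitor factor, covered 1062, 5724 and 6463 bp in the 3 eminence lists and 5036 bp in the CTX list. Only 3 of the 27, among them Dmrta1 and Lef1, were wider in CTX than in all 3 eminences (11.1%, against 2.76% of all genes in all 4 lists). The wider intervals of the LGE and CGE lists limit that comparison, and these shares were not tested.

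Among interneuron and striatal peptides, calcium-binding proteins and receptors, 2 of 16 genes were in the eminence group, against 1.16% of all. Npy had 724, 1827 and 2032 bp in MGE, LGE and CGE, and its nearest CTX interval lay 286507 bp from a TSS. Lamp5, a membrane protein of a class of interneurons, had 484, 1687 and 1838 bp, and its MGE interval had a −log10 q of only 1.27. Sst and Vip, peptides of other interneuron classes, had no promoter interval in any list.

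Genes of neurons in general contributed 2 of 15 pan-progenitor and pan-neuronal genes, against 1.16% of all, both known from young postmitotic neurons. Dcx, a microtubule protein of migrating neurons, had 541, 2238 and 2472 bp and its nearest CTX interval lay 268031 bp downstream. Stmn2, a regulator of microtubules in growing axons, had 399, 2540 and 2661 bp, with a CTX interval 586 bp downstream of a TSS. Of the 15, 12 were in all 4 lists. Dcx and Stmn2 are known to be active in young cortical neurons as well.

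Receptor, channel and synaptic genes were counted in families drawn up after the names had been seen and hence of no weight as evidence. Against 1.16% of all protein-coding genes, and 1.84% of those with an interval in any list, glutamate receptor genes were 5 of 27 (among them Gria1, Grik3, Grin2c and Grm5), GABA-A and glycine receptor subunits 3 of 24 (among them Glra1 and Glra3), potassium channel genes 7 of 94, and LRRTM, contactin and neurexophilin adhesion genes 5 of 21. Synaptotagmins and complexins were 3 of 21, SLC6 transporters 3 of 21, and homeobox genes 14 of 165. Of these families, the homeobox genes (Dlx4) and the SLC6 transporters (Slc6a21) had 1 member each in the cortex group, and the others none.

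Grik3, a kainate receptor subunit, had 2633, 2841 and 3583 bp, at percentiles of −log10 q of 58.9, 49.0 and 50.3, and its nearest CTX interval lay 44305 bp downstream. Gjd2, a neuronal gap junction protein, had 881, 1484 and 1715 bp, with the nearest CTX interval 160900 bp upstream. Grm5, a metabotropic glutamate receptor, had 540, 627 and 844 bp, with the nearest CTX interval 337221 bp away. All 3 genes were far from any CTX interval.

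Other receptor and channel genes also had no CTX interval within 5 kb of a TSS. Kcnj6, an inwardly rectifying potassium channel, had 640, 1290 and 1818 bp, with a CTX interval 18212 bp away. Htr2c, a serotonin receptor gene on the X chromosome, had 886, 1460 and 1385 bp, with the nearest CTX interval 590265 bp away. Ghsr, the ghrelin receptor, had 581, 1352 and 1585 bp. In these 3 genes the MGE interval was the narrowest. The same held for median widths over the whole eminence group (552, 1035 and 1193 bp in MGE, LGE and CGE). It also held over genes in all 4 lists (983, 1348 and 1431 bp).

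Members whose MGE interval was far narrower than the others included Gria1, an AMPA receptor subunit, at 118, 2231 and 2215 bp. Lrrtm3, a postsynaptic adhesion protein, had 190, 3627 and 3874 bp, with a CTX interval 2088 bp downstream of a TSS. Syt4, a synaptotagmin, had 339, 868 and 1090 bp. In Cplx1, a complexin, the 3 were closer, at 1031, 1373 and 1527 bp. A CTX interval began 30 bp downstream of a Syt4 start site and 21 bp downstream of one of Cplx1, so that these last 2 differed between lists at the edge of the window.

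Hem and meningeal genes made up the list members of the cortex group. The protocol names somatosensory cortex as the dissected tissue and does not state how far the dissection reached towards the hem. The tissue behind these intervals was not tested. Of 21 genes of cortical hem Wnt and BMP signalling, Wnt3a and Wnt8b were in the cortex group (against 0.456% of all genes), none was in the eminence group and 15 were in all 4 lists. Wnt8b had a CTX interval of 840 bp, 4.38-fold enriched with a −log10 q of 7.99, at percentile 48.6 of its list. The nearest CGE interval began 256 bp downstream of a Wnt8b TSS, LGE 1219 bp and MGE 4415 bp. Wnt3a, a hem ligand, had a CTX interval of 191 bp with a −log10 q of 2.74, and the nearest interval of an eminence lay 14008 bp away, in MGE. The Wnt8b interval was thus the stronger, but eminence intervals lay close downstream of its start sites.

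Dcn (decorin), a proteoglycan of fibroblasts and meninges, was 1 of 10 genes of meninges and pericytes in the cortex group, with a CTX interval of 138 bp and a −log10 q of 2.30. Its nearest eminence intervals were 165727 bp or more away. The other 9 meningeal genes were not in the cortex group, and 6 of the 10 were in all 4 lists. Of 8 endothelial genes 6 had an interval in no list, and of 8 microglial genes 7, and lists of choroid plexus and erythroid genes had no member in either group. The part of meningeal tissue in the Dcn interval was not tested.

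The strongest interval of the cortex group belonged to Gm13277, a predicted gene, 189 bp wide with a −log10 q of 13.3. Ptprf, a receptor tyrosine phosphatase of neurons, had the widest, at 2044 bp with a −log10 q of 12.6, and intervals of MGE, LGE and CGE began 388, 388 and 387 bp downstream of a TSS. Rhbdf1, an inactive rhomboid protein, had a CTX interval of 1287 bp, and eminence intervals began at or near a start site, at 0 bp in CGE and 1 bp in LGE. Lin7b, a synaptic scaffold protein, had 212 bp with a −log10 q of 10.9, and the nearest eminence interval began 605 bp downstream, in CGE. In Ptprf, Rhbdf1 and Lin7b the eminence lists thus held intervals next to the promoter.

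Cldn9, a claudin of tight junctions, had a CTX interval of 1321 bp with a −log10 q of 3.59, and its nearest eminence interval lay 6522 bp away. Dct, an enzyme of melanin synthesis, had 597 bp and a −log10 q of 2.96, with the nearest eminence interval 25385 bp away. Opn1sw, a cone opsin, had 576 bp and a −log10 q of 2.93. Slc26a7, an anion exchanger, had 154 bp and a −log10 q of 4.43, with no eminence interval nearer than 204018 bp. These 4 had no eminence interval within 5 kb, but none was above the middle of the CTX list.

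Transcription factors named by family in the cortex group had short intervals. Foxc2, a forkhead factor of mesenchyme, had 122 bp and a −log10 q of 2.04, with a CGE interval 193 bp downstream. Dlx4 had a CTX interval of 166 bp with a −log10 q of 1.26. Its percentile in the list was 0.564, so it was among the weakest intervals called.

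The intervals behind the groups were weak and, for the cortex group, short. The strongest promoter interval of eminence-group genes had median widths of 552, 1035 and 1193 bp from MGE to CGE, and a median percentile of −log10 q of 35.0, 23.4 and 28.2. The cortex group had 201 bp and the percentile 12.4. For genes in all 4 lists the median percentiles were 78.3, 68.6, 69.5 and 74.5, from MGE to CTX, and the median widths 983, 1348, 1431 and 1026 bp.

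In the upper part of its list by −log10 q, above the median, lay the interval of 56 eminence-group genes in MGE, 16 in LGE and 28 in CGE, and of 3 cortex-group genes in CTX. A −log10 q below 2 was the best value for 81, 8 and 4 eminence-group genes, and for 48 of the 100 cortex-group genes. The interval covered a TSS in 210, 238 and 242 of the 254 genes, and in 56 of the 100. The set in the MGE list alone was alike in this: a median width of 192 bp, a percentile of 18.2 and 60 of 140 covering a TSS. The same intervals chose the genes, so the strengths are given as a description.

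**Figure D4:**
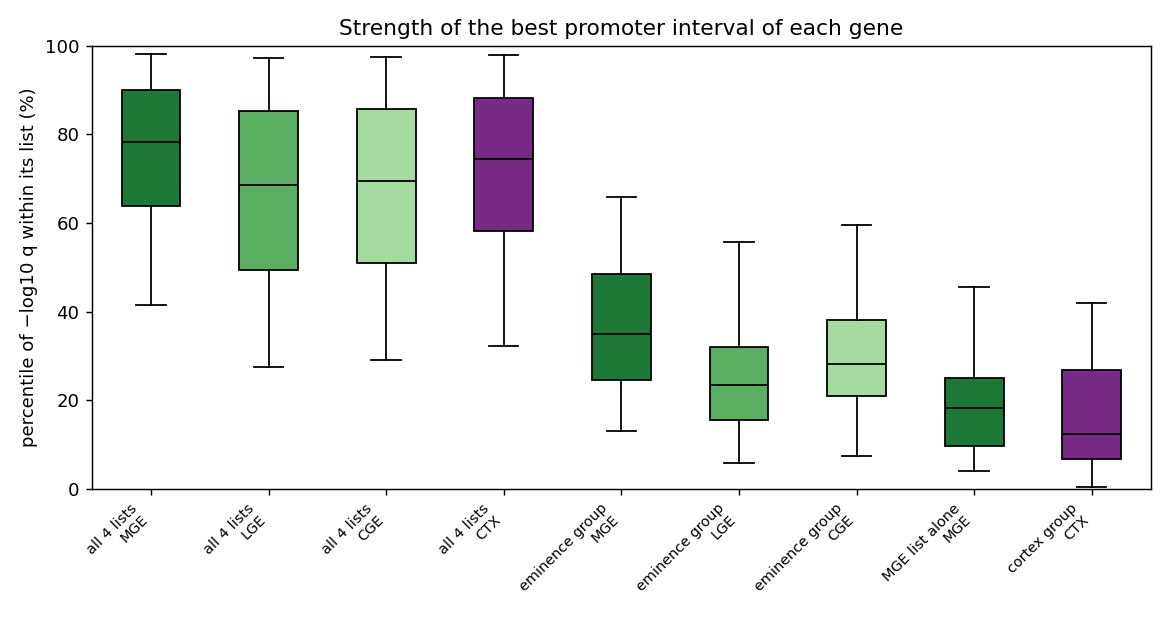
Percentile of −log10 q within its own list (vertical axis) of the strongest promoter interval of each gene, for genes in all 4 lists, the eminence group, genes in the MGE list alone and the cortex group. Boxes show quartiles and median and whiskers the 5th and 95th percentiles; medians are 68.6 to 78.3 for genes in all 4 lists, 23.4 to 35.0 for the eminence group, 18.2 for the MGE list alone and 12.4 for the cortex group.

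Many eminence-group genes had a CTX interval just beyond the promoter window. For 117 of the 254 (46.1%; 40.0 to 52.2) a CTX interval lay within 5 kb of a TSS, in 112 of them downstream, and for 72 genes it began 1 to 200 bp downstream. In 97 genes (38.2%) the eminence interval itself overlapped a CTX interval. The other 137 genes (53.9%) had no CTX interval within 5 kb of any TSS, and 118 had none within 10 kb. Of the cortex group, 37 of 100 had an eminence interval within 5 kb, and 63 none.

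The 12 genes ranked strongest in all 3 eminence lists, by their lowest percentile, each had a CTX interval within 5 kb of a TSS. Oaz3, an antizyme gene, had a width of 682, 949 and 1226 bp in MGE, LGE and CGE at percentiles of 96.2, 97.3 and 88.0, and a CTX interval 11 bp downstream of a TSS. Micu3, a regulator of mitochondrial calcium uptake, had percentiles of 83.1, 84.2 and 81.8, and a CTX interval 130 bp downstream. Cbfa2t3, a transcriptional corepressor, had 65.6, 73.9 and 84.4, with a CTX interval 112 bp downstream. For these 3 genes the difference between lists was in how far the interval reached upstream.

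Members with no CTX interval within 5 kb and the highest ranks were Grik3, Gjd2, Slc32a1, Sp9, Reps2, Nxph2, Resp18, Aldh1b1, Glra3 and Marveld3. Their lowest percentile in any list ran from 31.3 to 49.0. Nxph2, a secreted ligand of neurexins, had 662, 827 and 931 bp. Glra3, a glycine receptor subunit, had 568, 625 and 795 bp. Resp18, of dense-core vesicles, had 1067, 1048 and 1235 bp and lies 13913 bp from Ptprn, another member, but shares no interval with it.

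At the edge of the rule, Slc6a11 (a GABA transporter), Vit, Aebp1 and Ephx1 were inside the eminence group with a smallest overlap of 2, 3, 4 and 4 bp. Gm20403 was outside it through 1 bp of a CTX interval, and BC029722, Cdh20 and Colec12 through 2 bp each. In the cortex group, Vtcn1 was inside with 9 bp and Tnk1 with 20 bp, and Ablim3 was outside through 4 bp of an LGE interval.

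Neighbouring genes shared part of the evidence. In each eminence list 4 intervals lay at the promoters of more than 1 member: Zmynd15 and Cxcl16, Lrrc74b and P2rx6, Art1 and Art5, and Nup62cl and Pih1h3b each counted as 2 genes on 1 interval. Of 271 MGE intervals at member promoters 10 also lay at the promoter of a coding gene outside the group, as did 8 of 257 in LGE, 9 of 262 in CGE and 2 of 102 in CTX. The X chromosome held 17 of the 254 eminence-group genes (6.69%; 4.22 to 10.5), 1 of the 100 cortex-group genes and 4.32% of all protein-coding genes.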

How the data were processed

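The data were 12 H3K4me3 CUT&Tag libraries of MGE, LGE, CGE and CTX. The authors aligned reads with Bowtie2 to GRCm38 (mm10), removed blacklisted regions, removed duplicates with Picard, merged the replicates with SAMtools and called broad peaks with MACS; its version and threshold are not given in the sources used here. The 4 deposited lists hold coordinates, a score, a fold enrichment as a ratio, a −log10 p and a −log10 q for each interval. No depth can be read from them.

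Start sites of all transcripts of protein-coding genes came from GENCODE M21, and sequence from NCBI GRCm38.p6, the same build. Overlaps, Wilson intervals and sequence counts were computed in Python 3.11.15 with pandas 2.3.3, numpy 2.4.6 and scipy 1.17.1, and the overlap and group steps were tested on simulated data against a base-by-base count, with 200 of 200 runs equal. A gene's strongest interval was the one with the highest −log10 q, and summed width added all intervals at its promoters. The lists hold no replicate values, so no test was run.

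The members and gene lists were chosen with earlier results of these data known. Genes named were the list members, the 12 strongest by lowest percentile, the 5 widest, the 10 strongest without an interval of the other side within 5 kb, the 4 nearest the edge of the rule and transcription factors by family name. Families and markers named beyond these were chosen after their values were seen. 15 alternatives were listed at the start and 3, each leaving out an eminence list, were added after seeing the data. Some genes and sequences that the rule names are not reported here.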

Additional observations from a re-analysis of the deposited data

How the results depend on the processing

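The counts of 254 and 100 genes moved by more than 1.5 times under these settings. The eminence group held 419 genes with intervals of at least 500 bp only, 137 when a CTX interval within 5 kb either side counted as presence, 390 over all annotated genes and 479 without the MGE list. The cortex group held 34 with intervals of at least 500 bp only, 63 with the same 5 kb rule for absence, 239 over all annotated genes, 171 without the MGE list, 182 with 5 kb either side, 56 and 49 with every list limited to the length of the shortest by fold and by −log10 q, and 52 with a −log10 q of at least 2 required in CTX alone. The other settings gave 170 to 336 and 73 to 135 genes. With −log10 q of at least 2 in every list, 170 of the 254 genes remained among 239, and 52 of the 100 among 73. Leaving aside the settings for autosomes and for all annotated genes, 17 eminence-group genes were kept in all 16 alternatives, among them Npy, Grm5, Glra3, Htr2c, Kcnj6 and Pou4f2, and 3 cortex-group genes, Cldn9, Dct and Opn1sw; Wnt8b, Wnt3a and Gad1 were not, nor were the 6 eminence factors Nkx2-1, Lhx6, Lhx8, Gsx1, Six3 and Sp9 or Slc32a1, which all left the group with lists limited to the shortest by fold. No paired analysis was possible because replicates were merged before peaks were called, and no replicate could be left out for the same reason. The lists carry no read depth, and the read numbers stated by the study were compared only in words and entered no count.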
